A study of Ovis aries with 12 samples.

Results

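The genes followed here are 58 genes of DNA replication and the cell cycle, in RNA sequencing of the oviduct isthmus of 12 Small-Tailed Han (STH) ewes. The genes were listed by name, with earlier results of these data known. 39 of the 58 had at least 1 transcript that could be paired with its gene, of 10,771 genes paired in the whole table, and the level of a gene was the sum of its paired transcripts in FPKM, a fragment count scaled by transcript length and library size. The other 19, namely ORC1, CDT1, MCM2, MCM4, MCM5, MCM7, CDC45, POLE, TK1, CCND1, CCNA2, CCNB1, E2F1, UHRF1, MKI67, NCAPG, SMC2, SMC4 and ANLN, had no paired transcript and were not analysed here. 27 of the 39 genes rested on 1 transcript each, and the 39 held 57 transcripts in all.

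A dividing cell first loads the MCM helicase onto replication origins, then fires the origins and copies its DNA with polymerases that ride on the sliding clamp PCNA, fed by nucleotide-making enzymes such as ribonucleotide reductase. Cyclins and their kinases drive each step. In mitosis the aurora and polo-like kinases, the spindle proteins and the anaphase-promoting complex (APC/C), a ubiquitin ligase, separate the chromosomes. Messages of the mitotic genes are known to build up late in the cycle and to be nearly lost from resting cells, so they serve as marks of dividing cells, whereas several replication factors are also present in cells that do not divide. The oviduct isthmus is the narrow part of the oviduct next to the uterus, lined by secretory and ciliated epithelium inside a thick coat of smooth muscle, and its epithelium is known to change with the ovarian steroids.

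The 4 groups had 3 ewes each. MF were FecB BB ewes (homozygous for the fecundity mutation of BMPR1B, a BMP receptor) in the follicular phase and ML were FecB BB ewes in the luteal phase. wF and wL were wild-type ewes (FecB ++) in the follicular and luteal phases. All 12 ewes were about 2.5 ± 0.5 years old and carried a progesterone device (300 mg) for 12 days, so none was in an unsynchronized cycle. Follicular ewes were sampled 45 to 48 hours after the device was removed and luteal ewes on day 9. Each phase is thus a single time window, and each library is 1 ewe. FPKM sums over all transcripts were 349,733 to 456,531 per library, and 23.8 to 31.1% of transcripts were listed at 0. The scale of each library was read relative to MF1, from the step between low values. This ratio need not equal sequencing depth, since the paper gives similar average numbers of clean reads for MF and ML. ML1 had the lowest ratio, at 0.671 of MF1. wF3 (0.754), wL2 (0.765), ML2 (0.767) and ML3 (0.774) followed, and the other 7 libraries were at 0.918 to 1.15. By this ratio all 3 ML libraries lay below all 3 MF libraries.

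1 luteal library stood apart before any member was compared. 13 genes of ciliated cells with a paired transcript summed to 46.6 FPKM in ML3 and to 209 to 1177 FPKM in the other 11 libraries, and all 13 were lowest in ML3. 7 genes of smooth muscle summed to 6187 FPKM in ML3 and to 407 to 5447 FPKM elsewhere, and 6 of the 7 were highest in ML3. HOXA10, a positional gene of the lower tract, was at 50.3, 57.5, 36.5 and 11.5 FPKM in ML2, ML3, wF2 and wL2 and at 0 to 1.05 FPKM in the other 8 libraries. DES, a muscle filament, was at 969 FPKM in ML3 and 49.8 to 618 FPKM elsewhere. Epithelial EPCAM, chosen after its values were seen, was present in all 12 libraries, at 70.9 FPKM in ML3 and 151 to 482 FPKM elsewhere, while OVGP1, PAX8, FOXJ1, MYH11 and PTPRC had no paired transcript. Results that rest on ML3 are given with and without it. The 3 ewes of a group are the only replicates, and in whole tissue a lower level from fewer cells of a type and from less RNA per cell cannot be told apart.

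Mean levels of the 39 genes over the 12 libraries ran from 0.120 FPKM for ECT2 to 44.7 FPKM for CCND2. Among genes with the highest mean FPKM, RRM1 had 30.2, PCNA 22.6 and MCM6 21.7. All 39 passed the filter on low values (a mean of at least 0.1 FPKM), but ECT2 and CDC25C (0.127 FPKM) passed it only through the MF libraries. A comparison in which MF is higher was in part fixed for these genes by the filter, and the counts below include them. 12 of the 39 genes spanned more than 10-fold between their highest and lowest library, GINS1 and ECT2 from a level of 0, against 24.4% of all 8,676 genes tested. 5 genes, MCM3, MCM6, MCM10, POLA1 and RRM1, spanned less than 2-fold, against 22.6% of all genes.

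**Figure D1:**
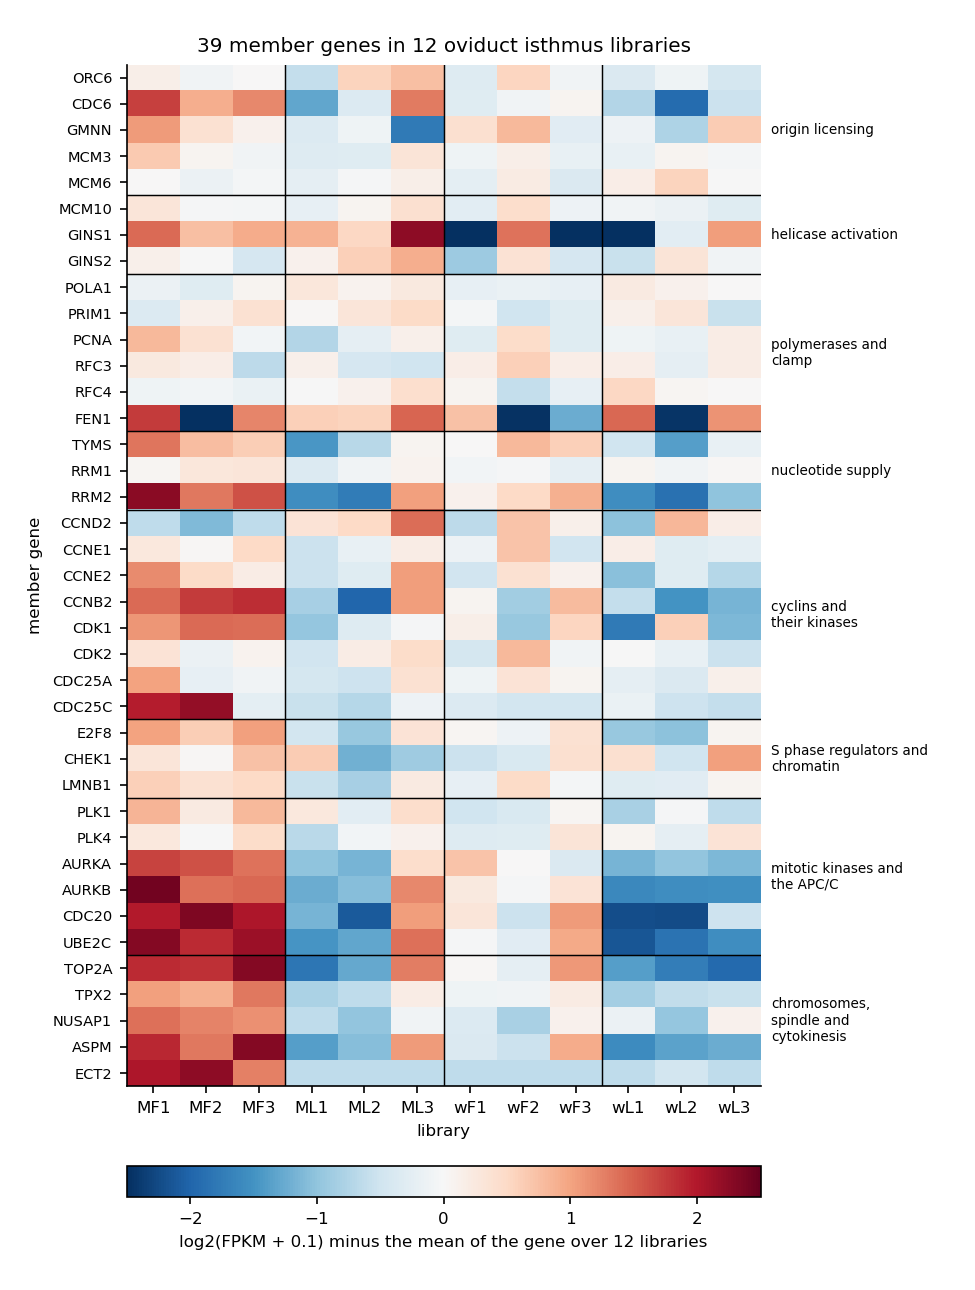
Levels of the 39 member genes (rows, ordered by role) in 12 libraries (columns), as log2(FPKM + 0.1) minus the mean of the gene, with the colour scale ending at 2.5 either way. The lower rows, from AURKA to ECT2, are reddest in MF1, MF2 and MF3, while MCM6, POLA1 and RRM1 stay pale in all 12 libraries.

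The question of MF vs ML is how the phases differ in FecB BB ewes. 4 of the 39 genes were higher in MF (adjusted p under 0.05 and a log2 change of at least 1 by limma, adjusted over all 8,676 genes), namely NUSAP1, TPX2, AURKA and ECT2, and none was lower. ECT2 was tested only because of its MF levels, which leaves 3 calls without it. The share of all genes called higher was 1.15%. Tested as single transcripts, 1 of 51 member transcripts was called, that of ECT2, against 0.272% of all 31,290 tested. No transcript of NUSAP1, TPX2 or AURKA was called. At an unadjusted p under 0.05, 19 of the 39 genes were higher, against 14.2% of all genes, and 1 was lower, against 11.3%. In 16 of the 39 every MF library lay above every ML library, against 16.5% of all genes. The median log2 change of the 39 genes was 0.65, and that of all genes was 0.06. Both medians were lower when the FPKM sums of the libraries were made equal, as given below. Cell type markers moved in the same comparison. The fitted change was above 0 in 13 of 13 ciliated-cell genes (median log2 2.40, with 2 at an unadjusted p under 0.05) and in 0 of 7 smooth muscle genes (median -1.80, with 4 lower at that p). OVGP1 and PAX8 of the secretory list had no paired transcript, and its tested genes, EPCAM and KRT8, were both higher at that p. Their part in the result was not tested.

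Proteins of the spindle, the chromosomes and cytokinesis had a median log2 change of 2.29 over 5 genes in MF vs ML, and 3 of the 5 were called. NUSAP1, a microtubule-binding protein of the spindle, was at 14.0, 12.7 and 11.9 FPKM in MF1, MF2 and MF3, at 3.39, 2.64 and 5.04 in ML, at 4.21, 2.98 and 5.79 in wF and at 4.81, 2.70 and 5.77 in wL. The 3 MF libraries stood above the other 9, whose groups all overlapped each other. Its log2 difference between MF and ML was 1.82 ± 0.35 (SE; limma adjusted p = 0.043), while between wF and wL it was -0.01 ± 0.35. This last value is of a sum whose transcripts differed. The transcript of highest mean FPKM had a change of -0.43 ± 0.38 in wF vs wL, and the others 2.28 ± 0.83 and 1.49 ± 0.79. None of these passed (limma adjusted p = 0.85, 0.66 and 0.74).

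TPX2, which activates aurora A on the spindle, was at 5.74, 5.25 and 7.11 FPKM in MF, at 1.55, 1.76 and 3.16 in ML, at 2.58, 2.61 and 3.23 in wF and at 1.49, 1.79 and 1.85 in wL. MF was highest, wF lay above wL without overlap, and ML3 reached the level of wF. The log2 change was 1.50 ± 0.29 in MF vs ML (limma adjusted p = 0.043) and 0.68 ± 0.29 in wF vs wL (adjusted p = 0.54).

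TOP2A, the topoisomerase that untangles sister chromosomes, was at 18.1, 17.6 and 24.3 FPKM in MF, at 1.32, 1.95 and 12.0 in ML, at 4.97, 4.18 and 10.4 in wF and at 1.83, 1.40 and 1.19 in wL. Both follicular groups stood above all wL libraries, and among ML libraries only ML3 came into the follicular range. Its log2 change of 2.60 ± 0.68 in MF vs ML did not pass (limma adjusted p = 0.068).

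ECT2, which is needed for cytokinesis, was at 0.527, 0.627 and 0.271 FPKM in MF and was listed at 0 in all ML and wF libraries and in wL1 and wL3, with 0.0133 in wL2. It was therefore seen almost wholly in MF, at levels under 1 FPKM in each library. Its adjusted p in MF vs ML was 0.022 by limma, but it entered the test only through the MF libraries, so this is given as a description. The size of the fitted change depends on the pseudocount and no fold is given. ASPM, a spindle pole protein, was at 2.27 to 4.55 FPKM in MF and 0.557 to 1.71 in wF, against 0.266 to 1.89 in ML and 0.220 to 0.305 in wL, with no overlap between MF and any other group.

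The 6 genes of the mitotic kinases and the APC/C had a median log2 change of 2.11 in MF vs ML and 1.48 in wF vs wL, and 1 of them, AURKA, was called in MF vs ML. AURKA (aurora A, which acts at the spindle poles) was at 2.59, 2.39 and 2.01 FPKM in MF, at 0.312, 0.272 and 1.03 in ML, at 1.26, 0.738 and 0.542 in wF and at 0.271, 0.318 and 0.280 in wL. The wL libraries lay within a narrow range below all others except ML1 and ML2. The log2 change was 2.12 ± 0.45 in MF vs ML (limma adjusted p = 0.047) and 1.21 ± 0.45 in wF vs wL (adjusted p = 0.50).

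AURKB (aurora B, the kinase of the chromosomal passenger complex) was at 3.48, 1.63 and 1.71 FPKM in MF, at 0.185, 0.219 and 1.44 in ML, at 0.695, 0.560 and 0.744 in wF and at 0.121, 0.127 and 0.133 in wL. The 4 groups were separate apart from ML3, which lay above wF. UBE2C, the ubiquitin-conjugating enzyme that works with the APC/C, was at 12.1, 8.91 and 10.8 FPKM in MF, at 0.796, 0.905 and 6.39 in ML, at 2.35, 1.95 and 4.71 in wF and at 0.465, 0.591 and 0.747 in wL. All follicular libraries exceeded all luteal libraries except ML3.

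CDC20, the APC/C activator, was at 5.66 to 7.21 FPKM in MF and at 0.208 to 2.94 FPKM in the other 9 libraries. PLK1, the polo-like kinase of mitotic entry, was at 2.89, 1.84 and 2.84 FPKM in MF, at 1.89, 1.29 and 2.15 in ML, at 1.08, 1.17 and 1.62 in wF and at 0.857, 1.53 and 0.977 in wL. Here MF and ML overlapped, and MF lay above wF. PLK4, the kinase of centriole duplication, was at 2.36 to 5.29 FPKM over all libraries with every group overlapping the others. PLK1 and PLK4 had log2 changes of 0.48 ± 0.33 and 0.46 ± 0.29 in MF vs ML and did not pass.

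**Figure D2:**
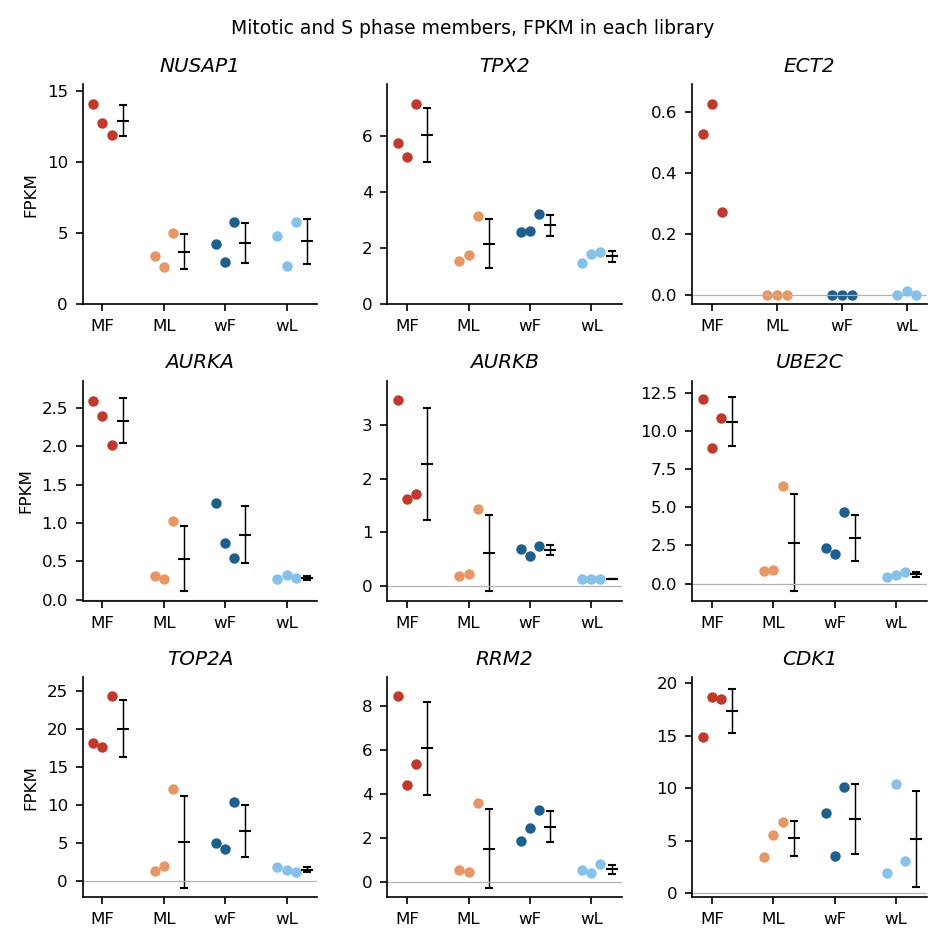
FPKM of 9 member genes in each library (points) by group, with the group mean and SD (bars, n = 3), and for ECT2 the points alone. MF is the highest group in all 9 panels, and in AURKB, UBE2C, TOP2A and RRM2 a single ML point, ML3, lies well above the other luteal points.

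Of 3 genes that supply nucleotides, RRM2 was called between the phases with genotypes pooled. RRM2, the small subunit of ribonucleotide reductase that is made in S phase, was at 8.45, 4.42 and 5.35 FPKM in MF, at 0.512, 0.439 and 3.56 in ML, at 1.84, 2.43 and 3.25 in wF and at 0.514, 0.396 and 0.801 in wL. The follicular libraries were above the luteal ones except ML3. RRM1, the large subunit, was at 31.0, 36.5 and 37.1 FPKM in MF, at 23.5, 28.2 and 31.7 in ML, at 28.7, 29.3 and 25.7 in wF and at 31.5, 28.3 and 30.4 in wL. It spanned 1.58-fold in all, and MF overlapped ML.

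TYMS, which makes thymidylate, was at 5.76 to 9.50 FPKM in MF and 3.75 to 6.64 in wF, against 1.29 to 3.90 in ML and 1.37 to 3.28 in wL. In both genotypes the follicular libraries lay above the luteal ones, with a log2 change of 1.60 ± 0.44 in MF vs ML (limma adjusted p = 0.074) and 1.16 ± 0.44 in wF vs wL (adjusted p = 0.50). The 2 subunits of ribonucleotide reductase, which act in 1 enzyme, thus had log2 changes of 2.48 ± 0.65 and 0.33 ± 0.14 in MF vs ML.

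None of the 5 origin licensing genes, 3 genes of helicase activation and 6 genes of polymerases and clamp was called by limma in any comparison. Their median log2 changes in MF vs ML were 0.31, -0.18 and -0.25. Without ML3 the medians of origin licensing and helicase activation were the changes of MCM3 (0.52) and MCM10 (0.14). That of polymerases and clamp then lay between the changes of RFC4 (-0.16) and PRIM1 (-0.12). MCM6, a helicase subunit, was at 21.6, 19.3 and 20.7 FPKM in MF, at 18.3, 21.0 and 23.6 in ML, at 18.0, 24.8 and 16.7 in wF and at 23.9, 31.4 and 21.3 in wL. MCM10, which helps to activate the helicase, was at 4.92, 3.86 and 3.81 FPKM in MF, at 3.39, 4.16 and 5.25 in ML, at 3.28, 5.41 and 3.59 in wF and at 3.70, 3.54 and 3.20 in wL. In both genes all phase comparisons overlapped, and the log2 changes in MF vs ML were -0.02 ± 0.20 and -0.01 ± 0.26.

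PCNA, the sliding clamp, was at 38.0, 28.4 and 20.6 FPKM in MF, at 13.0, 18.6 and 23.9 in ML, at 17.6, 29.9 and 17.5 in wF and at 20.1, 19.0 and 24.6 in wL. MF1 was highest and ML1 lowest, but the groups overlapped (log2 change 0.65 ± 0.30, limma adjusted p = 0.21). POLA1, the catalytic subunit of polymerase alpha, was at 6.38 to 8.37 FPKM in MF against 8.42 to 9.64 in ML, and at 6.84 to 7.07 in wF against 8.04 to 9.34 in wL.

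The groups of POLA1 did not overlap within either genotype, yet the pooled log2 difference was only -0.32 ± 0.11 (limma adjusted p = 0.16). RFC4, a subunit of the clamp loader, likewise lay lower in all MF than in all ML libraries, at 13.7 to 14.6 against 15.2 to 20.4 FPKM. RFC3, another subunit of that loader, PRIM1, the primase, and MCM3, a further helicase subunit, had log2 changes of 0.18, -0.22 and 0.31 in MF vs ML, each with overlapping groups.

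Of the remaining origin and helicase genes, CDC6, which loads the helicase, was at 1.21 to 2.17 FPKM in MF and 0.183 to 1.60 in ML, with ML3 as the highest luteal library. GMNN (geminin), which blocks the helicase loader CDT1, was at 17.6 to 34.7 FPKM in MF and 4.73 to 15.3 in ML, and here ML3 was the lowest of all 12 libraries. ORC6, an origin-binding subunit, and GINS2, a subunit of the active helicase, had log2 changes of -0.22 ± 0.36 and -0.63 ± 0.41.

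2 genes varied widely without following the groups. GINS1 was listed at 0 in wF1, wF3 and wL1 and reached 3.54 FPKM in ML3. FEN1, the nuclease that trims Okazaki fragments, was at 0.259 FPKM in MF2, 0.330 in wF2, 0.335 in wL2 and 0.913 in wF3 but at 3.42 to 7.85 in the other 8 libraries. Neither passed a test in any comparison.

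**Figure D3:**
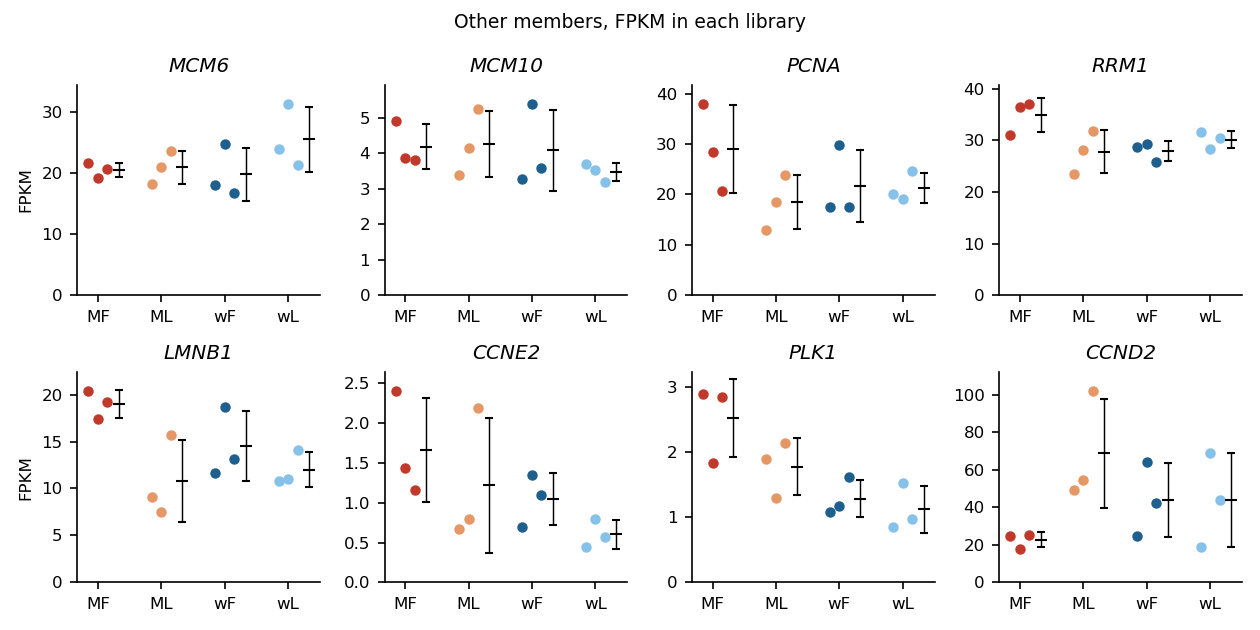
FPKM of 8 further member genes in each library (points) by group, with the group mean and SD (bars, n = 3). MCM6, MCM10 and RRM1 stay in a narrow band in all 4 groups, and LMNB1 has its highest group mean in MF. CCND2 is low in all 3 MF libraries, as it is in wF1 and wL1, and highest in ML3.

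None of the 8 cyclins, kinases and their phosphatases was called by limma in any comparison. At an unadjusted p under 0.05, 3 of them were higher and 1 was lower in MF vs ML. CDK1, the mitotic kinase, was at 14.9, 18.7 and 18.5 FPKM in MF, at 3.47, 5.51 and 6.75 in ML, at 7.64, 3.53 and 10.1 in wF and at 1.95, 10.4 and 3.11 in wL. MF stood above all other libraries, and wF and wL overlapped through wL2. CCNB2, a B-type cyclin that pairs with CDK1, was at 2.18 to 2.98 FPKM in MF and at 0.117 to 1.67 in the other 9 libraries. Their log2 changes in MF vs ML were 1.75 ± 0.57 and 2.26 ± 0.70 (limma adjusted p = 0.11 and 0.094).

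CCNE2, an S phase cyclin, was at 2.40, 1.44 and 1.16 FPKM in MF, at 0.665, 0.800 and 2.19 in ML, at 0.697, 1.34 and 1.09 in wF and at 0.440, 0.800 and 0.575 in wL. The groups overlapped, as they did for CCNE1 (0.554 to 1.45 FPKM over all libraries), for CDK2, the partner kinase of cyclin E (3.45 to 9.02 FPKM), and for CDC25A, a phosphatase that activates CDK2 (0.661 to 2.07 FPKM). The phosphatase CDC25C, which releases CDK1, was at 0.561, 0.679 and 0.0438 FPKM in MF, at 0.0158, 0.00348 and 0.0545 in ML, at 0.0331, 0.0238 and 0.0228 in wF and at 0.0512, 0.0192 and 0.0123 in wL. MF1 and MF2 were far above all others, and MF3 was not, so the log2 change of 1.77 ± 0.59 did not pass (limma adjusted p = 0.11).

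CCND2, the D-type cyclin of G1 that is known to respond to growth factors, was the 1 that was lower. It was at 24.9, 18.0 and 24.99 FPKM in MF, at 49.4, 54.6 and 102 in ML, at 24.6, 64.1 and 42.6 in wF and at 19.0, 68.9 and 43.7 in wL. All MF libraries lay below all ML libraries, ML3 was highest, and wF and wL overlapped fully. The log2 change was -1.54 ± 0.49 in MF vs ML (limma adjusted p = 0.099) and 0.08 ± 0.49 in wF vs wL. The next highest libraries in CCND2 after ML3 were wL2, wF2 and ML2, which are also the other libraries with HOXA10 above 10 FPKM, and the part of this in the result was not tested.

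Among S phase regulators, LMNB1, a nuclear lamina protein that is known to fall in senescent cells, was at 20.4, 17.5 and 19.2 FPKM in MF, at 9.13, 7.51 and 15.7 in ML, at 11.7, 18.7 and 13.1 in wF and at 10.8, 11.0 and 14.1 in wL. MF was above ML without overlap, while wF overlapped wL (log2 changes 0.88 ± 0.27 and 0.25 ± 0.27). E2F8, a repressor of E2F targets, was at 0.377 to 0.540 FPKM in MF and 0.0546 to 0.307 elsewhere. CHEK1, the checkpoint kinase, ranged from 2.11 to 10.2 FPKM with overlap in every comparison.

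**Figure D4:**
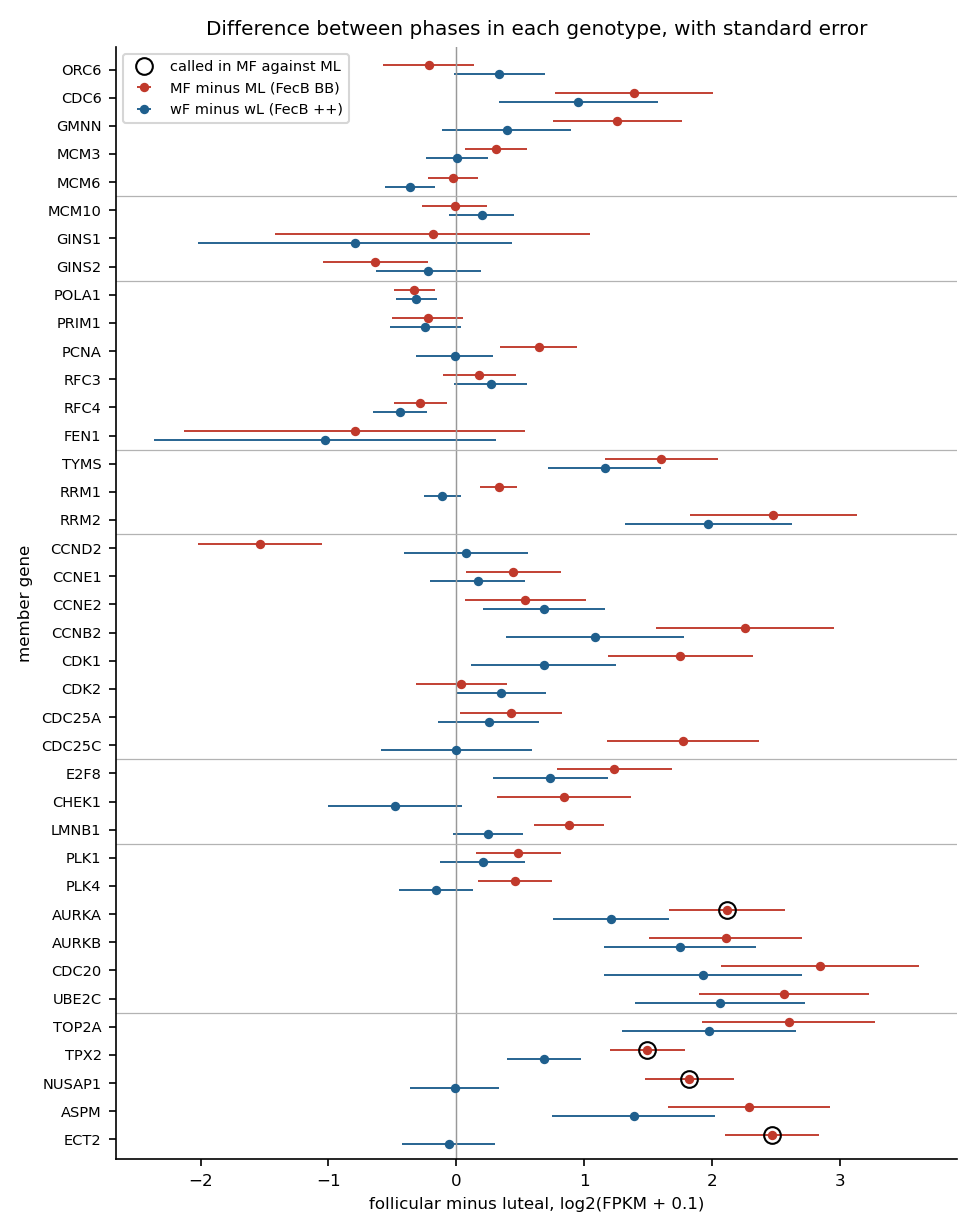
Follicular minus luteal difference of each member gene in log2(FPKM + 0.1), with its standard error, in FecB BB ewes (red) and FecB ++ ewes (blue), with rings on the 4 genes called in MF vs ML. Both colours lie to the right for UBE2C, TOP2A, RRM2, AURKB and CDC20, whereas NUSAP1, ECT2 and CDC25C are near 0 in FecB ++ ewes.

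The question of wF vs wL is how the phases differ in wild-type ewes. None of the 39 genes passed, nor did any gene of the whole table (0%). At an unadjusted p under 0.05 by limma, 8 of the 39 were higher in wF, against 2.82% of all genes, and none was lower, against 5.97%. These were UBE2C, RRM2, AURKB, TOP2A, AURKA, TYMS, CDC20 and TPX2. 9 genes had every wF library above every wL library (4.31% of all genes). The changes reached log2 2.06 ± 0.66 for UBE2C, 1.98 ± 0.68 for TOP2A and 1.97 ± 0.65 for RRM2, each with an adjusted p of 0.49. The median of the 39 was 0.25, against -0.12 over all genes. Beside this, the fitted change was above 0 in 7 of 7 smooth muscle genes (median log2 1.01), in 0 of 13 ciliated-cell genes (median -0.89) and in 4 of 5 fibroblast genes (median 1.92, with 2 at an unadjusted p under 0.05), and their part was not tested. In 23 of the 39 genes the fitted change was above 0 in both genotypes.

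Pooled over genotypes, 5 genes were higher in the follicular phase, against 0.692% of all genes. These were TPX2 (log2 1.09 ± 0.20), AURKA (1.66 ± 0.32), RRM2 (2.23 ± 0.46), UBE2C (2.31 ± 0.47) and TOP2A (2.29 ± 0.48), with limma adjusted p between 0.039 and 0.048. 17 genes had a higher level at an unadjusted p under 0.05 (9.26% of all genes), and 2, POLA1 and RFC4, a lower one (10.8% of all genes). No gene had all 6 follicular libraries above all 6 luteal libraries (0.864% of all genes). With ML3 left aside, all 6 follicular libraries exceeded the other 5 luteal ones in CDC6, TYMS, RRM2, AURKA, AURKB, UBE2C, TOP2A, TPX2 and ASPM, which are 9 of the 39 genes, against 1.5% of all genes.

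The luteal library ML3 was the highest of the 6 luteal libraries in 28 of the 39 genes, against 17.7% of all genes. TOP2A was at 12.0 FPKM there and at most 1.95 in the other luteal libraries, UBE2C at 6.39 against at most 0.905, and ASPM at 1.89 against at most 0.355. ML3 was not the highest luteal library in GMNN, MCM6, POLA1, PCNA, RFC3, RFC4, CDK1, CHEK1, PLK4, NUSAP1 and ECT2. The near loss of ciliated-cell genes and the smooth muscle level of ML3 moved with these values, and their part in the result was not tested.

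**Figure D5:**
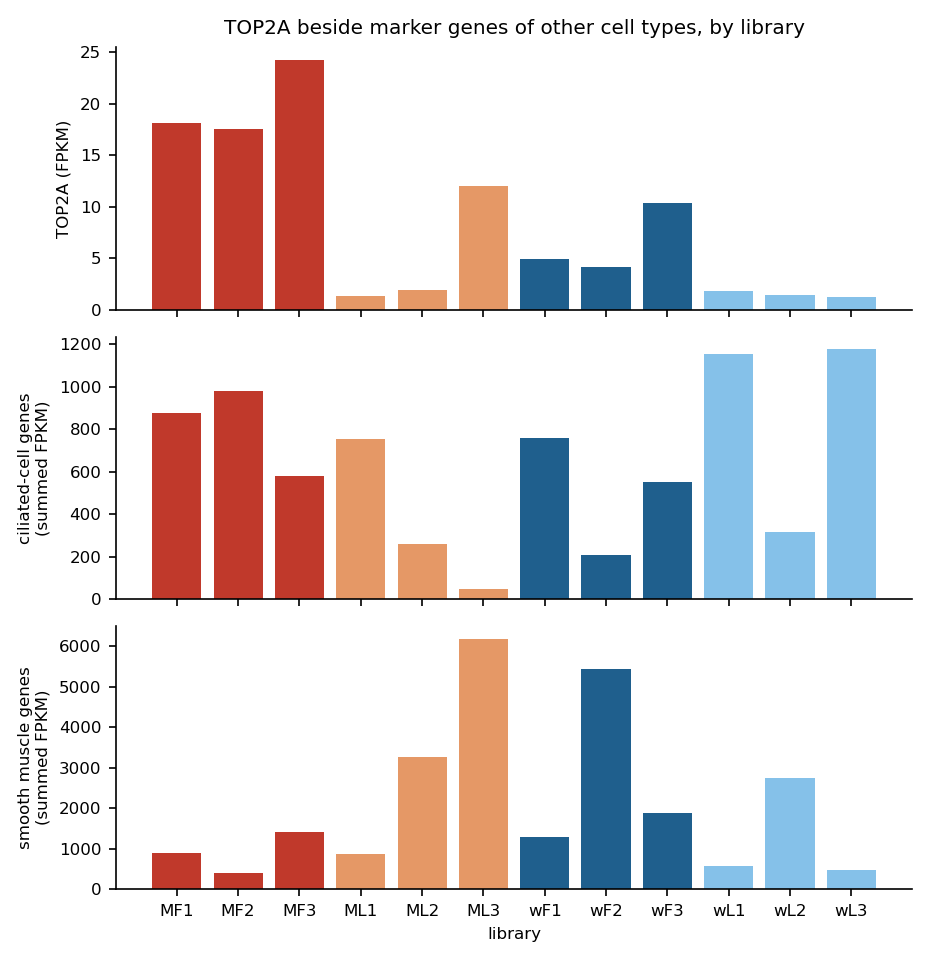
TOP2A (FPKM, top), summed ciliated-cell genes (middle) and summed smooth muscle genes (bottom) in each of the 12 libraries, coloured by group. ML3 has the highest luteal TOP2A (12.0 FPKM), the lowest ciliated-cell sum (46.6 FPKM) and the highest smooth muscle sum (6187 FPKM). The next highest smooth muscle sums are those of wF2 and ML2 (5447 and 3257 FPKM), with TOP2A at 4.18 and 1.95 FPKM. The link between TOP2A and these sums was not tested.

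Calls depended on single libraries. Without ML3, 11 of the 39 genes were called in MF vs ML (0.934% of all genes) and 10 with genotypes pooled (1.19%). The 11 were RRM2, CCNB2, AURKA, AURKB, CDC20, UBE2C, TOP2A, TPX2, NUSAP1, ASPM and ECT2. Among them the log2 change of UBE2C was 3.49 ± 0.39 and that of TOP2A 3.54 ± 0.40 (limma adjusted p = 0.0064 for each). None was called in MF vs ML without MF1 (0.0231% of all genes) or without MF2 (0.0115%). There were 3 calls without MF3 (2.04%), 5 without wL2 (2.75%) and 3 without wF2 (1.71%). Without any 1 of ML1, ML2, wF1, wF3, wL1 or wL3 only ECT2 was called, against 0.207 to 0.957% of all genes. The pooled comparison had 0 calls without any 1 library other than MF3 (ECT2 alone, against 0.784% of all genes) or ML3. Without ML2, ML3, wF2 and wL2, the libraries with HOXA10 above 10 FPKM, only ML1 was left in ML, against 3 MF libraries. Calls in MF vs ML are therefore not given for this fit. The log2 changes there were 1.89 for NUSAP1, 1.88 for TPX2, 2.55 for AURKA, 2.28 for CDK1, 3.57 for UBE2C and 3.81 for TOP2A. In the same fit 5 of the 39 genes were called with genotypes pooled (1.07% of all genes), again with ML1 alone in ML.

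The questions of MF vs wF and ML vs wL are how the genotypes differ within a phase. In MF vs wF none of the 39 genes passed by limma (0.0231% of all genes), but 14 were higher in MF at an unadjusted p under 0.05, against 1.99% of all genes, and none was lower (1.15%). In 17 of the 39 genes every MF library lay above every wF library, against 5.16% of all genes. The log2 changes were 1.60 ± 0.35 for NUSAP1, 1.42 ± 0.45 for AURKA, 1.88 ± 0.66 for UBE2C and 1.70 ± 0.68 for TOP2A, with adjusted p of 0.885 for NUSAP1 and 0.997 for the others. The median of the 39 was 0.52, against 0.02 over all genes.

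In 13 of the 39 genes the 3 MF libraries were the 3 highest of all 12, against 1.43% of all genes. These were RRM2, CCNB2, CDK1, E2F8, AURKA, AURKB, CDC20, UBE2C, TOP2A, TPX2, NUSAP1, ASPM and ECT2. Summed smooth muscle genes were at 407 to 1402 FPKM in MF and 1300 to 5447 FPKM in wF, and summed ciliated-cell genes at 578 to 979 and 209 to 758 FPKM. Their part in the difference was not tested.

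In ML vs wL none of the 39 genes passed (0% of all genes), and at an unadjusted p under 0.05 by limma none was higher (3.84% of all genes) or lower (9.22%). AURKB and UBE2C were above wL in every ML library, 2 of the 39 genes against 4.83% of all genes. The members' median of 0.28 (all genes -0.16) turned to -0.037 without ML3, and the log2 change of UBE2C from 1.38 to 0.46. The interaction of phase and genotype had no call among the 39 genes (0.0115% of all genes) by limma. At an unadjusted p under 0.05 the phase change was more positive in FecB BB ewes for 2 of the 39 genes, ECT2 and NUSAP1, against 8.32% of all genes, and more negative for 1, CCND2, against 4.7%.

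Related genes outside the list were read from lists written by hand. Of 14 tested genes of the spindle checkpoint and the kinetochore, 3 were higher in MF vs ML, against 1.15% of all genes. These were BUB1 and MAD2L1, which hold anaphase until chromosomes attach, and CENPN, a centromere protein. MAD2L1 was at 15.5, 15.5 and 15.2 FPKM in MF and at 4.29 to 6.85 FPKM in ML, with a log2 change of 1.55 ± 0.22 (limma adjusted p = 0.022). BUB1 was at 2.20, 3.42 and 3.03 FPKM in MF and at 0 to 0.0583 FPKM in the other 9 libraries, listed at 0 in 7 of them, so it passed the filter on low values only through MF. BUB1 was also called in MF vs wF and for the interaction, which is given as a description for that reason. MAD2L1 and CENPN are the calls in MF vs ML without it.

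Of 12 tested mitotic kinesins and partners, KIF4A and PRC1, which bundle the central spindle together, were higher in MF vs ML, against 1.15% of all genes. KIF4A was listed at 0 in 8 libraries and passed the filter on low values only through MF, which leaves PRC1 without it. PRC1 was at 7.28, 7.10 and 8.56 FPKM in MF and at 1.81 to 4.51 in wF, against 0.721 to 1.71 in ML and 0.292 to 0.984 in wL, with a log2 change of 2.81 ± 0.49 (limma adjusted p = 0.037). With genotypes pooled, KIF20A and KIFC1 passed as well, where 0.692% of all genes were called higher. The median log2 changes in MF vs ML were 1.58 for the checkpoint list and 2.51 for the kinesins.

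The other 4 lists of the cycle held no call by limma in any comparison. In MF vs ML 14.2% of all genes were higher and 11.3% lower at an unadjusted p under 0.05, and the counts that follow are to be read against these shares. Of 23 further replication factors, 2 were higher in MF vs ML at an unadjusted p under 0.05, DTYMK, a thymidylate kinase, and CLSPN, a fork checkpoint protein (log2 1.32 ± 0.36 and 1.35 ± 0.45). The median of the 23 was 0.27. Of 13 CDK inhibitors, pocket proteins and E2F or DREAM factors, 2 were higher and 1 lower at that p. E2F7, a partner of E2F8 in repression, had a log2 change of 2.20 ± 0.56, and the CDK inhibitor CDKN1B, which holds cells in G1, of -0.66 ± 0.24. Of 22 other cyclins, CDKs and ubiquitin ligase subunits, 4 were higher and 1 lower, with ANAPC11 at 0.53 ± 0.16 and CKS1B at 0.82 ± 0.27. Of 8 other condensin and cohesin subunits none was higher and 4 were lower, among them the cohesin loader NIPBL (-0.69 ± 0.20) and PDS5B (-1.11 ± 0.35). Among these 6 lists the kinesins and the checkpoint list had the largest medians in MF vs ML.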

How the data were processed

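RNA of 12 oviduct isthmus samples was sequenced. Reads were cleaned with fastp and aligned to Oar_v3.1 with HISAT2 by the authors, who used StringTie for transcripts and deposited an FPKM for each. Tool versions are not given in the sources used here. FPKM is already divided by length and library size, so a count test such as the study's was not used. Of 43,674 mRNA transcripts, 15,202 (34.8%, carrying 67.6% of the mRNA FPKM) were paired with genes by accession through a RefSeq table of ARS-UI_Ramb_v3.0, a newer assembly, so gene sums are incomplete. No sequence or coordinate was used. log2(FPKM + 0.1) of gene sums with a mean of at least 0.1 was fitted in R 4.3.3 with limma 3.58.1 (trend, 4 group means, 12 libraries), and p-values were adjusted by Benjamini and Hochberg over 8,676 genes. SE and log2 changes are from this fit. Figures used Python 3.11.15 and matplotlib 3.10.9. The steps were tested on simulated data. Members and lists were chosen with earlier results of these data known. Every library value was given for members called, for the 5 of smallest p in each comparison, for the highest of each role and for TOP2A, PCNA and CDK1, usual markers of cycling cells (MKI67, MCM2 and CCNB1 were not analysed here). A promoter motif count was planned and not run. Alternatives were pseudocount, filter, scaling, replicate block, fewer libraries and leaving out each library. Samples were grouped by their titles, and no column was left unmapped. The relative scale of a library came from the most common ratio to MF1 among transcripts at 0.005 to 0.05 FPKM in both libraries.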

Additional observations from a re-analysis of the deposited data

Results flagged for a closer look

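In 11 genes ML3 lay far from the other luteal libraries, with a gap to the next library that made up most of the range of the 6 (Dixon's test). The ML3 levels were 1.60 FPKM for CDC6, 3.56 for RRM2, 2.19 for CCNE2, 1.67 for CCNB2, 1.03 for AURKA and 1.44 for AURKB. They were 2.90 for CDC20, 6.39 for UBE2C, 12.0 for TOP2A, 3.16 for TPX2 and 1.89 for ASPM. In these 11 genes the next luteal library was at 0.219 to 1.95 FPKM. 3 other values stood out in the same way, MCM3 at 16.5 FPKM and CDC25A at 2.07 FPKM in MF1, and ECT2 at 0.0133 FPKM in wL2, where the other luteal libraries were listed at 0. With 5 of 6 luteal values of ECT2 at 0, any other value would stand out, so it says nothing. Without it, 13 of 77 sets of 6 libraries stood out, where the cut-off gives about 1 in 20, or 3.85, for normally distributed values. FPKM was used without a log here, so that rate need not hold. The sets are not independent of each other, since 11 of the 13 concern 1 library.

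The change by phase differed between the genotypes at an unadjusted p under 0.05 in 3 of the 39 genes, 2 more positive and 1 more negative, against 8.32% and 4.7% of all genes. The difference (MF minus ML, less wF minus wL) was 2.53 for ECT2, a value set by the pseudocount because 8 libraries were listed at 0, 1.84 for NUSAP1 and -1.61 for CCND2 on the log2 scale. The limma interaction test, adjusted over all genes, gave an adjusted p of 0.375 for each, so none passed the correction. NUSAP1 was higher in every MF library than in any ML library, while CCND2 was lower in every MF library. For the single transcripts of NUSAP1 the difference was 2.42, -1.67 and 1.28, so it did not hold for each.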

How the results depend on the processing

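Of the members' medians and the changes of called genes, only the median for ML vs wL turned sign. It was -0.037 without ML3 and -0.090 without ML2, ML3, wF2 and wL2. That set was chosen after seeing the data and leaves ML1 alone in ML. Small changes of genes not called could also turn sign. Without ML3, the log2 change in MF vs ML went from -0.22 to 0.04 for ORC6 and from -0.02 to 0.06 for MCM6. With no filter, 10,602 genes were tested. Members called were then 2 in MF vs ML, 1 in MF vs wF, 2 with genotypes pooled and 1 for the interaction. ECT2 was the call in MF vs wF and the interaction. Calls in MF vs ML were 2 at a mean FPKM of at least 1 and 0 when only its 6 libraries were fitted. Under quantile normalization 2 members were called with genotypes pooled. Equal FPKM sums gave 9 calls with genotypes pooled. In MF vs ML they gave a median of 0.31 and moved the median of all genes from 0.06 to -0.26. They gave 5 calls there, 4 higher and 1 lower (CCND2). Leaving out 1 library at a time gave 0 to 11 calls in MF vs ML and 0 to 10 with genotypes pooled. It gave 0 to 1 in MF vs wF and none in the other comparisons. Medians over these fits were 0.45 to 0.75 in MF vs ML and 0.09 to 0.35 in wF vs wL. They were 0.37 to 0.67 in MF vs wF, -0.037 to 0.43 in ML vs wL and 0.31 to 0.48 with genotypes pooled. With the replicate block, 3 genes were called in MF vs ML and 6 with genotypes pooled. Deviations of samples of 1 number had correlations of -0.19 to 0.39. Whether such samples share more than a number was not tested. Apart from the fits without single libraries, these counts are given without the share of all genes called. They therefore do not set the members against other genes. 1 library per ewe, 3 ewes per group and the missing read counts limit the precision of low genes. The causes of these shifts were not tested.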

Other observations

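CDC20B, a gene of the multiciliated-cell programme that shares its family with CDC20, was higher in MF vs ML. It was at 13.1, 56.4 and 16.1 FPKM in MF, 1.09, 0.502 and 0.117 in ML, 26.7, 2.24 and 19.97 in wF and 1.22, 2.46 and 2.44 in wL. All MF libraries lay above all luteal ones, and wF2 lay among the luteal ones. The log2 change was 5.42 ± 0.95 in MF vs ML and 3.91 ± 0.67 with genotypes pooled (limma adjusted p = 0.040 and 0.032). It was the only call among 5 tested genes of that list, which was chosen with earlier results known. Of all genes, 1.15% were called higher in MF vs ML and 0.692% with genotypes pooled. The summed ciliated-cell genes, at 578 to 979 FPKM in MF and 46.6 to 755 FPKM in ML, moved with it, and their part was not tested.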
